A study of Mus musculus with 45 samples.

Results

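The genes described here, in mouse embryonic stem cells and embryoid bodies, are Crxos, Srgn, Rpl39l, Dnajc6, Fmr1nb, Cbr3 and Calcoco2. They are 7 of the 18193 genes measured, and they were chosen by measured values, as genes whose signal was higher in the Strip2 KD line than in both control lines at each stage. Embryonic stem cells (ESCs) were grown by hanging drop into embryoid bodies (EBs), aggregates in which stem cells begin to form the tissues of all germ layers. One line is labelled as silenced for Strip2 (KD), the first control carries a scrambled construct (SCR) and the second is wild type (WT). All lines are male and of strain 129, and each was hybridised in triplicate at 5 stages: undifferentiated ESCs and EBs on days 4, 8, 12 and 16. Every group thus holds 3 arrays. The labels do not state whether a line is 1 clone, nor whether the 3 arrays come from separate cultures, so the p-values reflect the spread among the arrays, part or all of which may be technical.

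Undifferentiated ESCs keep a network of pluripotency factors active and, beside it, many transcripts otherwise known from germ cells, testis or the early embryo. During EB formation these programmes are normally shut down as mesoderm, endoderm and ectoderm derivatives appear. The 7 genes belong to no common pathway: their products act in homeobox regulation, granule storage, ribosomes, vesicle uncoating, the testis, carbonyl reduction and autophagy.

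Levels are log2 signals of a single probe set per gene, which all lay between 1.82 and 14.26, with array medians between 5.02 and 5.18. A level is not comparable between genes, because probe sets differ in affinity. Across probe sets, the correlation of replicates was 0.9888 to 0.9961. Strip2 itself, read by 1 probe set, had a mean of 2.72 in KD, 2.85 in SCR and 2.70 in WT ESCs, near the lowest values on the arrays. At day 16 it stood at 3.28 in KD, 4.85 in SCR and 2.88 in WT EBs. Against SCR it was called lower in KD at days 12 and 16, at -0.92 and -1.56 (limma adjusted p = 1e-04 and 8.6e-09). It was not lower in KD than in WT at any stage, and at day 12 it was called higher, at 0.63 (limma adjusted p = 0.0061). The controls thus disagree, and the line is called KD by its label alone. The mean of 8 ESC markers, among them Pou5f1 and Nanog, was 11.8 in KD, 11.5 in SCR and 11.9 in WT ESCs and so high in all lines.

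On the chosen probe sets all 7 genes had each of the 3 KD arrays above each of the 6 control arrays at all 5 stages. Among all genes this held at all 5 stages for 2.84%, and at single stages for 9.64% in ESCs, 20% at day 4, 25.7% at day 8, 26.6% at day 12 and 34% at day 16. These values chose the genes, so the separation is a description and nothing is read from it. Ranked by the mean of KD minus SCR over stages among the 516 genes without overlap, the 7 genes stood at places 7, 8, 9, 12, 13, 14 and 18. Calcoco2, the lowest of the 7, averaged 3.82, while Rhox5 at place 15, with 3.95, and Mymx and Mageb16 at places 1 and 2, with 6.02 and 5.99, are not among the 7.

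**Figure D1:**
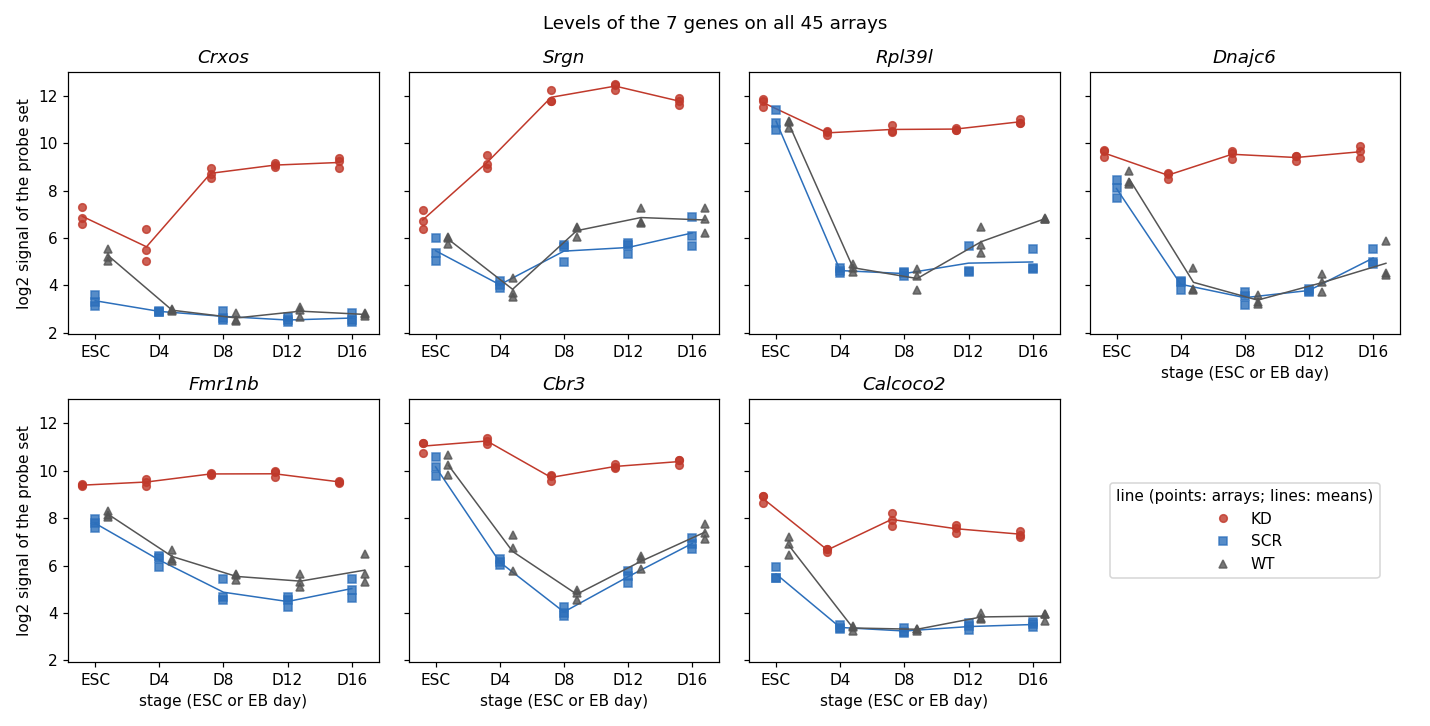
Log2 signal of each gene (vertical axis) by stage (horizontal axis), with a point for each array and lines through the means of the KD, SCR and WT groups of 3. KD arrays lie above all SCR and WT arrays at each stage. The gap is narrow in ESCs for Rpl39l, Cbr3 and Srgn and wide in EBs.

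Promoter sequences are shown for Rpl39l, Srgn and Cbr3, because these 3 genes had the narrowest gaps in ESCs and wide ones in EBs. They come from RefSeq's table for GRCm38.p6 and run from 250 bases before to 50 bases after an annotated start, 5′ to 3′ on the gene's strand. In all, 10 promoters of 6 of the 7 genes were matched by symbol. In the Rpl39l promoter (chr16:10169978-10170277, plus strand) and the first Srgn promoter (chr10:62527396-62527695, minus strand) capitals mark CCGGAA or its reverse complement, the core recognised by ETS factors. In the second Srgn promoter (chr10:62507708-62508007, minus strand) capitals mark ATGCAAAT, the octamer bound by POU factors. In the Cbr3 promoter (chr16:93682969-93683268, plus strand) capitals mark CG dinucleotides.
Rpl39l: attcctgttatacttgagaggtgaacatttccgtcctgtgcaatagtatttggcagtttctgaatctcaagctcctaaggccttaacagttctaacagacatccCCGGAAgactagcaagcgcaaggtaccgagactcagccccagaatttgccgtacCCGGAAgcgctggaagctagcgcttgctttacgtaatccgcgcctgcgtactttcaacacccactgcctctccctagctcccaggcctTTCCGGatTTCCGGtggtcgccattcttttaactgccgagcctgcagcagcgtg
Srgn, first start: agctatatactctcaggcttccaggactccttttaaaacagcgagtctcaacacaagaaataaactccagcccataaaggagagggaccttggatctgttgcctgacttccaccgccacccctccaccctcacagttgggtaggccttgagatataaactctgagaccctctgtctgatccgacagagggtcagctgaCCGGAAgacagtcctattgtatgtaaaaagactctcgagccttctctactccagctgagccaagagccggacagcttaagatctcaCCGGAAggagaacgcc
Srgn, second start: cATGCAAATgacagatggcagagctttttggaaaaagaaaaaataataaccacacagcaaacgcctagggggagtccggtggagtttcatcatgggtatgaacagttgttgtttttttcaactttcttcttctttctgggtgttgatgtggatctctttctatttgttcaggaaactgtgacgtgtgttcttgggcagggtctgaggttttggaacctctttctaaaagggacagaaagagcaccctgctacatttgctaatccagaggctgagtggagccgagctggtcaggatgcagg
Cbr3: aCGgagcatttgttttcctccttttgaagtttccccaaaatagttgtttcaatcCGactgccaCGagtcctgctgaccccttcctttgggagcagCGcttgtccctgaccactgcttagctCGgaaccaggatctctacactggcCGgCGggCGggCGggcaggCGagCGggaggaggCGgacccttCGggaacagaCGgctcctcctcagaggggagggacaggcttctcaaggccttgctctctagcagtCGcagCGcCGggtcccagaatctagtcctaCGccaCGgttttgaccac

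Both strands were searched for 4 motifs, picked after the sequences had been seen. CCGGAA was found in 2 of the 10 promoters, 4 times in that of Rpl39l and 2 times in the first of Srgn, and in 14.9% of the 32841 promoters of the same length in the table. The octamer was found in 1 of the 10 and in 1.74% of all. The E-box CACGTG was in none of the 10 and in 7.15% of all, and the antioxidant response element core TGACNNNGC was in 1 of the 10, a Crxos promoter, and in 12.4% of all. CG dinucleotides numbered 19 in the Cbr3 promoter, 17 in that of Rpl39l and 0 to 4 in the 3 Crxos promoters, against a median of 7 over all promoters. The Srgn promoters held 8 and 4, those of Dnajc6 9 and 16 and that of Fmr1nb 9. The counts of Cbr3 and Rpl39l stood only at the 71.9 and 68.6 percentiles of all promoters. A match is a run of letters and not a shown binding site.

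Crxos lies on chromosome 7 opposite the photoreceptor homeobox gene Crx and encodes a homeobox protein known from the early mouse embryo. In ESCs its signal was 6.61, 6.84 and 7.30 in KD, against 3.14, 3.32 and 3.61 in SCR and 5.21, 5.05 and 5.54 in WT. The 3 lines did not overlap, with WT between the others. At day 4 the signal was 5.04, 5.49 and 6.37 in KD EBs, against 2.90, 2.92 and 2.90 in SCR and 2.99, 2.96 and 2.92 in WT EBs. By day 16 it was 8.95, 9.37 and 9.25 in KD EBs, against 2.86, 2.47 and 2.55 in SCR and 2.83, 2.79 and 2.72 in WT EBs. The KD level thus dipped at day 4 and was highest late, while both control lines stayed close to the floor of the arrays in all EBs. KD minus SCR ran from 2.73 at day 4 to 6.56 at day 16 (log2 difference, SE 0.20, n = 3 each), and KD minus WT from 1.65 in ESCs to 6.41 at day 16. Control EB levels of Crxos lay between the 2.8 and 7.3 percentiles of all genes, which limits how exactly the differences can be read.

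A further Crxos probe set was dimmer, with a mean of 3.90 over all arrays. On it KD lay above all control arrays at 3 of the 5 stages, with KD minus SCR from 0.13 in ESCs to 1.83 at day 16. Both probe sets share the separation from day 8 on but not that in ESCs and at day 4.

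Srgn, on chromosome 10, encodes serglycin, the proteoglycan core that packs proteases and chemokines into the granules of blood cells and that was first cloned from a rat yolk sac tumour. Its signal in ESCs was 7.20, 6.38 and 6.72 in KD, against 5.04, 6 and 5.36 in SCR and 6.05, 6.02 and 5.77 in WT. The lowest KD array lay 0.33 above the highest control array. At day 12 the signal was 12.51, 12.26 and 12.47 in KD EBs, against 5.72, 5.78 and 5.31 in SCR and 7.27, 6.65 and 6.68 in WT EBs. KD minus SCR was 1.30 in ESCs and 6.81 at day 12 (SE 0.27, n = 3 each), and KD minus WT 0.82 and 5.55. The KD mean stood at the 58.3 percentile of genes in ESCs and at the 99.1 percentile at day 12.

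Rpl39l, on chromosome 16, encodes a ribosomal protein that resembles Rpl39 of the large subunit and is known as a testis-enriched form. In ESCs it was strongly expressed in all lines, at 11.77, 11.85 and 11.52 in KD, against 10.55, 11.41 and 10.84 in SCR and 10.63, 10.93 and 10.89 in WT. The lowest KD array exceeded the highest control array by 0.11. At day 8 the signal was 10.77, 10.48 and 10.50 in KD EBs, against 4.53, 4.56 and 4.42 in SCR and 4.68, 4.41 and 3.79 in WT EBs. KD minus SCR was 0.78 in ESCs and 6.08 at day 8 (SE 0.24, n = 3 each), and KD minus WT 0.90 and 6.29. In KD EBs of day 4 all 3 arrays, at 10.52, 10.46 and 10.34, lay below all control ESC arrays, whereas KD EBs of days 8, 12 and 16 overlapped control ESCs.

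Dnajc6, on chromosome 4, encodes auxilin, the co-chaperone that brings Hsc70 to clathrin-coated vesicles for uncoating and that is mostly known from neurons. ESC signals were 9.42, 9.71 and 9.66 in KD, against 7.69, 8.11 and 8.47 in SCR and 8.38, 8.27 and 8.82 in WT. At day 8 the KD EBs stood at 9.68, 9.61 and 9.32, against 3.55, 3.72 and 3.19 in SCR and 3.32, 3.59 and 3.24 in WT EBs. KD levels stayed high while those of both controls dropped near the floor. KD minus SCR ran from 1.51 in ESCs to 6.05 at day 8 (SE 0.26, n = 3 each). Of the 3 further probe sets, 1 separated KD from all controls at all 5 stages (KD minus SCR 1.80 to 3.28), 1 at 4 stages (0.76 to 1.17) and 1, with a mean of 2.80 over all arrays, at 2 stages (-0.12 to 0.41).

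Fmr1nb lies on the X chromosome beside Fmr1 and is known as a testis-expressed gene that is also switched on in tumours. In ESCs it stood at 9.40, 9.35 and 9.43 in KD, against 7.57, 7.98 and 7.80 in SCR and 8.07, 8.14 and 8.30 in WT. At day 12 it stood at 9.93, 9.97 and 9.72 in KD EBs, against 4.24, 4.66 and 4.55 in SCR and 5.30, 5.09 and 5.64 in WT EBs. The 15 KD arrays lay within 9.35 to 9.97 across all stages. KD minus SCR ran from 1.61 in ESCs to 5.39 at day 12 (SE 0.21, n = 3 each), and KD minus WT from 1.22 to 4.53 at the same stages.

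Cbr3, on chromosome 16, encodes carbonyl reductase 3, an NADPH-dependent enzyme that reduces carbonyl compounds and is known as a target of the stress-response factor NRF2. In ESCs it stood at 11.18, 11.17 and 10.77 in KD, against 10.14, 10.58 and 9.77 in SCR and 10.23, 10.65 and 9.82 in WT. The gap to the highest control array was 0.12. At day 8 it stood at 9.84, 9.77 and 9.55 in KD EBs, against 4.25, 3.88 and 4 in SCR and 4.83, 4.99 and 4.55 in WT EBs. Day 8 held the lowest mean of each line, and both controls climbed again to 6.93 in SCR and 7.41 in WT EBs at day 16. KD minus SCR was 0.88 in ESCs, 5.68 at day 8 and 3.46 at day 16 (SE 0.24, n = 3 each).

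Calcoco2, on chromosome 11, encodes NDP52, which in human cells is a receptor that carries bacteria and mitochondria to autophagosomes. In ESCs it stood at 8.92, 8.62 and 8.92 in KD, against 5.49, 5.48 and 5.96 in SCR and 6.45, 6.90 and 7.20 in WT. As for Crxos, the lines did not overlap in ESCs and WT lay between the others. At day 16 it stood at 7.21, 7.46 and 7.31 in KD EBs, against 3.61, 3.54 and 3.39 in SCR and 3.97, 3.97 and 3.67 in WT EBs. Its KD minus SCR was the most even of the 7 genes, from 3.18 in ESCs to 4.71 at day 8 (SE 0.15, n = 3 each), and KD minus WT ran from 1.97 to 4.63.

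Ordered by the 15 group means, neighbouring groups often overlapped: 8 of 14 neighbouring pairs for Crxos, 9 for Cbr3 and for Calcoco2, 10 for Srgn and for Fmr1nb, 11 for Rpl39l and 12 for Dnajc6. The 5 KD groups took the top 5 places for Crxos, Dnajc6 and Fmr1nb. For Srgn the KD ESCs stood below WT EBs of day 12, and for Calcoco2 the KD EBs of day 4 stood below WT ESCs. For Cbr3 and Rpl39l control ESCs stood among the KD groups.

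The change over differentiation within each line asks how each gene moved as EBs formed. It is a different contrast from the one that chose the genes, but it uses the same arrays, so its direction is not independent of the choice. In control lines most of the 7 genes fell. From ESCs to day 4, 6 fell in SCR, where 42.5% of all genes were called in either direction by limma at an adjusted p under 0.05. In WT all 7 fell, with 41.7% of all genes called. By day 16, 6 fell and 1 rose in each control line, with 71.8% of genes called in SCR and 66.2% in WT.

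Rpl39l fell most, with a day 4 minus ESC difference of -6.30 in SCR and -6.07 in WT (SE 0.24, limma adjusted p = 6.7e-22 and 2.1e-21). In WT it lay less far down by day 16, at -3.99, than in SCR, at -5.94. Dnajc6 changed by -4.04 in SCR and -4.36 in WT at day 4 (SE 0.26, limma adjusted p = 1.8e-15 and 2e-16), and Cbr3 by -4.02 and -3.64 (SE 0.24, limma adjusted p = 1.6e-16 and 2.2e-15). Fmr1nb changed by -1.55 in SCR and -1.79 in WT at day 4, and by -2.75 and -2.36 at day 16. Calcoco2 changed by -2.25 in SCR and -3.48 in WT at day 4 (SE 0.15). Crxos changed by -2.31 in WT at day 4 (SE 0.20, limma adjusted p = 2.8e-12), while its -0.45 in SCR did not pass (adjusted p = 0.066). On the further Crxos probe set the WT change was 0.067 at day 4 and -0.29 at day 16, neither of which passed (adjusted p = 0.84 and 0.16), so the fall of Crxos in WT at both days rests on the chosen probe set. Srgn went both ways: at day 4 it was lower than in ESCs by -1.43 in SCR and -2.11 in WT, and at day 16 higher by 0.75 in SCR and 0.82 in WT (SE 0.27, limma adjusted p = 0.014 and 0.0084). The day 16 rise of Srgn was lost in SCR without replicate 1 of the ESCs or of day 16 (adjusted p = 0.1 and 0.18), and in WT without replicate 3 of day 16 (adjusted p = 0.085). With only the arrays of the 2 groups in the fit it was also lost in SCR (adjusted p = 0.077).

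In KD the 7 genes moved in several ways. At day 4, 1 rose, 4 fell and 2 were not called, where 23.9% of all genes were called. At day 16, 2 rose, 3 fell and 2 were not called, with 38.1% of all genes called. Srgn rose by 2.42 at day 4 and by 5.01 at day 16 (SE 0.27, limma adjusted p = 1.4e-08 and 1.4e-16), and each KD EB array of those days lay above each KD ESC array. Crxos was lower at day 4, at -1.28, and higher at day 16, at 2.27 (SE 0.20, limma adjusted p = 5.5e-06 and 1.7e-11). On its further probe set the day 4 call was lost (-0.14, adjusted p = 0.68). Calcoco2 (-2.16 and -1.49) and Rpl39l (-1.27 and -0.81) fell at both days. Dnajc6 fell at day 4, at -0.94 (adjusted p = 0.0066), and stood at 0.05 on day 16 (adjusted p = 0.91), though averaged over its probe sets it fell at day 16, at -0.29 (adjusted p = 0.037). Cbr3 stood at 0.22 on day 4 (adjusted p = 0.58). It fell at day 16, at -0.65 (adjusted p = 0.029), a call lost without replicate 1 or 2 of the ESCs or replicate 2 or 3 of day 16, where adjusted p was 0.051 to 0.097. Fmr1nb stood at 0.13 and 0.14 (SE 0.21, limma adjusted p = 0.72 and 0.66). The KD minus control difference in these changes was not tested, since it comes from the contrast that chose the genes.

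**Figure D2:**
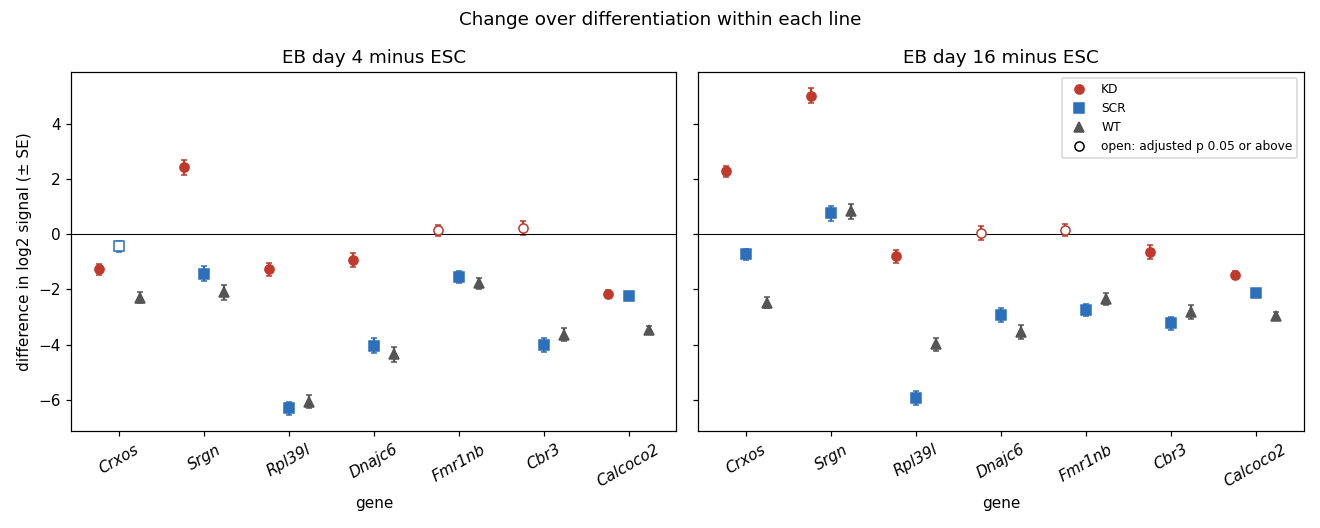
Log2 signal of EBs minus ESCs (vertical axis, ± SE) for each gene (horizontal axis) at day 4 (left) and day 16 (right), in KD, SCR and WT, with 3 arrays per group. Open points did not pass an adjusted p of 0.05. In SCR and WT most points lie far below 0, whereas in KD Srgn lies above 0 at both days and Crxos at day 16.

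The comparison of SCR with WT shows how far the controls themselves differed. The genes were chosen for a high KD minus SCR difference, which favours genes with low SCR values, so the direction is not independent of the choice. In ESCs 2 of the 7 were lower in SCR (10.2% of all genes called in either direction), at day 4 none (1.93%), at day 8 2 (6.99%), at day 12 3 (14.7%) and at day 16 2 (8.11%). None was higher in SCR at any stage. At day 4 limma also gave none of the 7 an unadjusted p under 0.05.

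In ESCs Crxos was lower in SCR, at 3.36 ± 0.24 against 5.27 ± 0.25 in WT (SD, n = 3, difference -1.91, SE 0.20, limma adjusted p = 5.1e-08). On its further probe set the sign was opposite, at 0.32 (adjusted p = 0.36), so this difference rests on the chosen probe set. Calcoco2 stood at 5.64 ± 0.27 in SCR ESCs, against 6.85 ± 0.38 in those of WT (SD, n = 3, difference -1.21, SE 0.15, limma adjusted p = 6.5e-07). In EBs it was Srgn at days 8 and 12 (-0.86 and -1.26), Rpl39l at days 12 and 16 (-0.91 and -1.83) and Fmr1nb at days 8, 12 and 16 (-0.67, -0.86 and -0.78) that were lower in SCR (limma, adjusted p under 0.05). The day 8 calls of Srgn (adjusted p = 0.044) and Fmr1nb (adjusted p = 0.048) were both lost on leaving out any array of WT and 2 of the 3 arrays of SCR, with adjusted p up to 0.29 and 0.3. Rpl39l at day 12 lost its call without WT replicate 2 or SCR replicate 1 or 2 (adjusted p = 0.064 to 0.088), and Fmr1nb at day 12 without WT replicate 3 (0.052) and at day 16 without WT replicate 3 or SCR replicate 2 or 3 (0.057 to 0.29). With only the arrays of the 2 groups in the fit, Calcoco2 in ESCs (0.077), Rpl39l at day 12 (0.14), Srgn and Fmr1nb at day 8 (0.058 and 0.16) and Fmr1nb at day 16 (0.26) also missed the threshold. Same-numbered arrays of SCR and WT deviated together in ESCs and at days 8 and 12. With the replicate number as a block within those stages, Cbr3 was also called lower in SCR at days 8 and 12 (adjusted p = 0.033 and 0.044) and Calcoco2 at day 12 (0.024), which made 5 of the 7 genes at day 12. With 1 block over all arrays Fmr1nb missed the threshold at day 8 (0.052) and Cbr3 passed it (0.046). At day 16 Rpl39l was 5.56, 4.73 and 4.69 in SCR, against 6.82, 6.84 and 6.82 in WT EBs (SE 0.24, limma adjusted p = 7e-07), and the lines did not overlap.

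**Figure D3:**
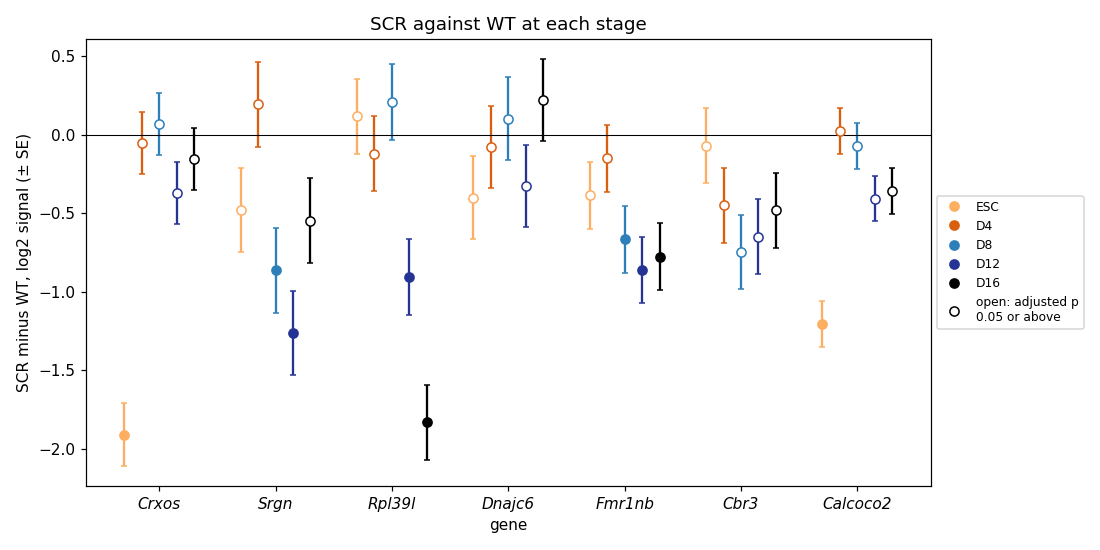
SCR minus WT in log2 signal (vertical axis, ± SE) for each gene (horizontal axis), with a point for each stage and 3 arrays per group. Filled points passed an adjusted p of 0.05, and all of them lie below 0.

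The change from ESCs differed between SCR and WT for a few of the genes, in a test added after the values were seen. To day 4 it differed for Crxos, by 1.86 (SE 0.28, limma adjusted p = 0.00012), and for Calcoco2, by 1.23 (SE 0.21, limma adjusted p = 5e-04), both falling less in SCR, where the ESC level was lower, and 4.99% of all genes were called. To day 16 it differed for Crxos (1.76), Calcoco2 (0.85) and Rpl39l (-1.95, SE 0.34, limma adjusted p = 0.00018), with 8.12% of all genes called. With only the 4 groups compared in the fit, neither Calcoco2 difference passed (adjusted p = 0.062 and 0.12). On the further Crxos probe set both differences turned, to -0.31 and -0.36, and neither passed (adjusted p = 0.64 and 0.52). The day 4 and day 16 differences share the ESC arrays. At day 4 SCR and WT stood close, at 2.91 and 2.96 for Crxos and at 3.39 and 3.37 for Calcoco2. Their differences in change to day 4 thus largely repeat SCR minus WT in ESCs, at -1.91 and -1.21, with the sign turned.

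Marker lists of cell types were set beside the levels of the 7 genes. The 8 ESC markers averaged 11.1 to 11.4 in KD EBs, against 5.41 to 7.14 in SCR and 5.67 to 7.86 in WT EBs, and none lay below the array median in KD. The 7 germ cell markers, among them Ddx4 and Dazl, averaged 7.30 to 7.92 in KD EBs, against 3.22 to 4.00 in SCR and 3.32 to 4.59 in WT EBs. A further list held 9 markers of extraembryonic endoderm, the yolk sac lineage. In KD EBs they averaged 6.67 at day 4, 8.72 at day 8, 9.24 at day 12 and 8.55 at day 16. On the same days they averaged 6.46, 7.58, 7.79 and 7.82 in SCR, and 6.61, 7.69, 7.82 and 7.83 in WT. None of the 9 lay below the array median in KD EBs of day 12, against 3 in SCR and 4 in WT. Over the same days the KD mean was 9.18, 11.94, 12.41 and 11.78 for Srgn and 5.63, 8.73, 9.08 and 9.19 for Crxos. The part of these cell types in the levels was not tested, and in bulk RNA fewer cells of a type and less RNA per cell cannot be told apart.

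Blood markers stayed low in KD EBs while Srgn rose. The 11 genes, among them Ptprc and Spi1, averaged 5.11 to 5.20 in KD EBs, against 4.23 to 7.44 in SCR and 4.38 to 8.13 in WT EBs, and 8 of the 11 lay below the array median in KD EBs at each day. The 7 endothelial markers averaged 4.53 to 4.62 in KD EBs and up to 7.14 in SCR and 7.24 in WT EBs. At day 16 markers of fibroblasts or feeders averaged 5.54 in KD, 11.10 in SCR and 11.43 in WT EBs. Neuron markers averaged 5.07, 6.43 and 6.57 there, and trophoblast markers 5.95, 5.68 and 6.87.

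**Figure D4:**
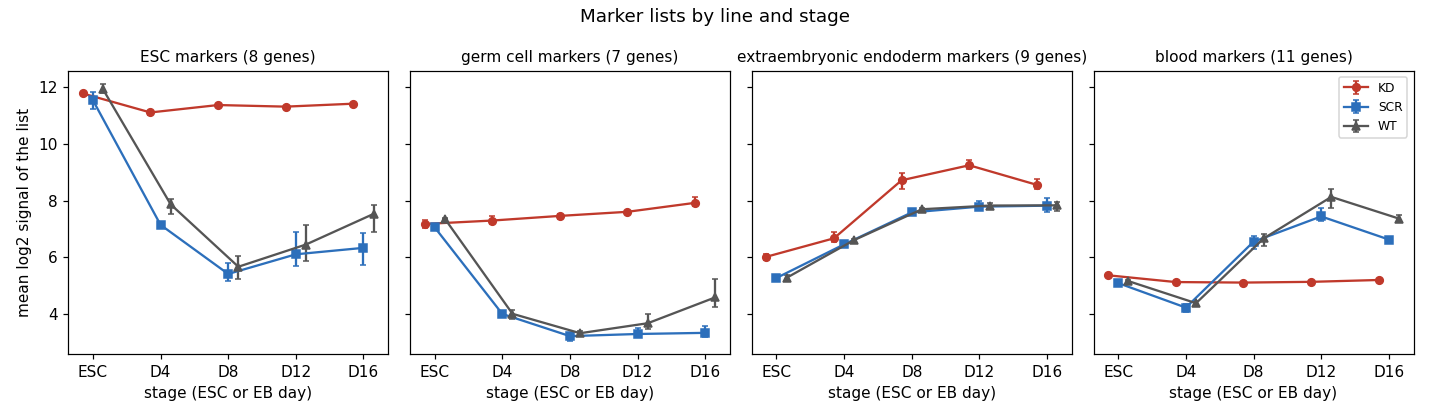
Mean log2 signal (vertical axis) of marker genes of ESCs, germ cells, extraembryonic endoderm and blood by stage (horizontal axis) in KD, SCR and WT, with bars from the lowest to the highest of 3 arrays. ESC and germ cell markers stay high in KD EBs, extraembryonic endoderm markers reach 9.24 in KD at day 12 and blood markers stay near 5 in KD.

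The partners of the 7 proteins were examined in lists drawn up for their roles, with earlier results of these data known. Mageb16 and Rhox5, named above for their rank in KD minus SCR, are in these lists. The counts and p-values of the lists are thus not independent of these data and only describe. In the comparison of KD with SCR limma called 23.6% of all genes in ESCs, 42.4% at day 4, 52.8% at day 8, 55.6% at day 12 and 66.6% at day 16, and in that with WT 18.4%, 39.1%, 49.9%, 50.7% and 60.8% at the same stages. The comparisons share the KD arrays.

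For Cbr3, the list of carbonyl reductases and NRF2 targets had 16 measured genes. Against SCR 8 rose and 1 fell in ESCs, 10 rose and 1 fell at day 4, and 7 rose and 5 fell at day 16. The median difference was 0.39 in ESCs and 0.61 at day 4, beside 0.03 over all genes at both stages, and 0.11 at day 16, beside 0.17 over all genes. Against WT 6 rose in ESCs, 10 rose and 2 fell at day 4, and 5 rose and 6 fell at day 16. The median against WT was 0.53 at day 4, beside -0.01 over all genes, 0.03 at day 12, beside 0.04, and -0.04 at day 16, beside 0.13. Nqo1, the quinone reductase, stood at 8.98 in KD, 4.62 in SCR and 4.50 in WT EBs of day 4 (KD minus SCR 4.36, limma adjusted p = 4.4e-18), and was higher than both controls at all 5 stages. Gclm, the modifier subunit of glutathione synthesis, also rose at all 5 stages, by 2.55 against SCR at day 4. The aldo-keto reductase gene Akr1c13 was higher in ESCs, at 0.71, and lower at day 16, at -3.56. Of the other carbonyl reductases, Cbr1, the gene next to Cbr3, stood at -0.30 against SCR in ESCs and was higher by 0.32 at day 4 and 0.25 at day 8. Cbr2 stood at 3.83 in KD, 6.36 in SCR and 5.59 in WT EBs of day 16 (KD minus SCR -2.53, limma adjusted p = 4.3e-15), the opposite direction to Cbr3. Cbr4 was higher than SCR at day 16, at 0.39 (limma adjusted p = 0.016), and was not called against WT (0.14).

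For Srgn, 15 genes of glycosaminoglycan chain synthesis, which make the sugar chains serglycin carries, were measured. Against SCR 3 fell in ESCs and 9 fell and 2 rose at day 4. At each of days 8, 12 and 16, 10 fell, and 0, 1 and 1 rose. Against WT none was called by limma in ESCs, where 0 had an unadjusted p under 0.05, while 8 fell and 1 rose at day 4, 11 fell at each of days 8 and 12, and 10 fell and 1 rose at day 16. The median at day 8 was -0.61 against SCR and -0.76 against WT, beside 0.07 and 0.05 over all genes. Chsy1, a chondroitin synthase, stood at 7.82 in KD, 10.13 in SCR and 9.98 in WT EBs of day 8 (KD minus SCR -2.32, limma adjusted p = 2e-21). Csgalnact1, which starts chondroitin chains, changed by -2.29 at day 16, and the chondroitin sulfotransferase gene Chst11 by -1.47 at day 8. Of the 12 granule proteins that serglycin binds, none was called by limma in ESCs or at day 4 against SCR, where 1 and 2 had an unadjusted p under 0.05. The platelet chemokine gene Pf4 stood at 4.55 in KD, 10.27 in SCR and 9.38 in WT EBs of day 8, a fall of 5.72 against SCR. At day 16, 6 rose and 1 fell against SCR and 3 rose and 1 fell against WT. The risers Tpsb2 and Ctsg, granule proteases, changed by only 0.48 and 0.36.

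For Crxos, 14 homeobox genes of the early embryo were measured. Against SCR 4 rose and 1 fell in ESCs, 8 rose at day 8 and 9 rose and 1 fell at day 16. Against WT 3 rose and 2 fell in ESCs, 7 rose at day 8, and 5 rose and 2 fell at day 16. The median at day 16 was 0.73 against SCR and 0.24 against WT, beside 0.17 and 0.13 over all genes. The X-linked homeobox gene Rhox6 stood at 8.89 in KD, 3.39 in SCR and 4.12 in WT EBs of day 8, but at day 16 it was lower in KD than in WT, at 7.99 against 8.93. Otx2, a regulator of the epiblast and forebrain, stood at 10.35 in KD, 5.69 in SCR and 5.07 in WT EBs of day 8. Rhox5 changed by 4.60 against SCR and 2.56 against WT at day 12.

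For Rpl39l, 5 other ribosomal protein paralogues were measured. Rps4l stood at 11.86 in KD, 9.35 in SCR and 10.02 in WT EBs of day 16 (KD minus SCR 2.51, limma adjusted p = 3.8e-16), and in ESCs its difference was 0.19 (adjusted p = 0.45). Rpl22l1 changed by -0.59 and Rpl3l by 1.01 against SCR at day 12. Rpl3l was dim in all lines there, at 3.77 in KD, 2.75 in SCR and 2.85 in WT EBs. Of the 5 paralogues 3 rose and 1 fell against SCR at day 16, and 2 rose and 1 fell against WT. Of 5 widely expressed counterparts only Rpl22 was called against SCR, by 0.47 at day 8, 0.41 at day 12 and 0.45 at day 16. Rpl39 itself was not called at any stage against either control, and its probe set stood near the array medians, at 4.93 to 5.16, although Rpl39 is known as an abundant transcript.

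For Dnajc6, 21 genes of the clathrin coat and its uncoating were measured, with 5 up and 9 down against SCR at day 8 and 6 up and 7 down at day 16. Against WT 4 were up and 10 down at day 8, and 4 up and 7 down at day 16. At day 12 more were up than down, with 8 and 6 against SCR and 6 and 5 against WT. At day 4, 5 were up and 5 down against SCR, and 4 up and 7 down against WT. Amph, the membrane-curving amphiphysin gene, stood at 7.10 in KD, 4.34 in SCR and 4.15 in WT EBs of day 8. The endophilin gene Sh3gl2 was higher by 2.53 at day 8 and the coat assembly gene Snap91 was lower by -2.37 at day 16, both against SCR. At day 8, however, Snap91 was higher in KD, by 0.92 against SCR and 1.10 against WT (limma adjusted p = 0.0028 and 0.00046). At day 12 its difference was -0.60 against SCR and 1.27 against WT. Gak, the widely expressed relative of auxilin, was called against SCR only at day 12, at 0.27 (limma adjusted p = 0.0094).

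For Calcoco2, 19 autophagy receptors and core genes were measured, with 5 up and 1 down against SCR in ESCs and 6 up and 5 down at day 16. Against WT 2 were up and 2 down in ESCs, and 5 up and 6 down at day 16. Gabarapl2, a member of the family of autophagosome-bound proteins, was higher than both controls at all 5 stages, at 11.72 in KD, 9.55 in SCR and 10.29 in WT ESCs (KD minus SCR 2.17, limma adjusted p = 2.3e-18). The galectin gene Lgals8, whose product marks damaged vesicles for NDP52 in human cells, changed by -2.43 at day 16, and the kinase gene Ulk1 by 1.54. Of the relatives, the receptor gene Tax1bp1 was not called at any stage. Calcoco1 was higher than both controls at day 4, by 0.92 against SCR and 0.60 against WT, and at day 16, by 0.62 and 0.49. It was higher than SCR alone in ESCs and at day 12, and was not called at day 8 (limma, adjusted p under 0.05). At day 4 it stood at 4.93 in KD, 4.01 in SCR and 4.33 in WT EBs.

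For Fmr1nb, 9 X-linked genes of the cancer/testis type were measured, of which none was called by limma in ESCs against SCR (1 at an unadjusted p under 0.05). At day 4, 2 rose and 1 fell, at day 12 4 rose and at day 16 7 rose. Against WT 1 fell in ESCs, 2 rose at day 4, 3 at day 12 and 4 at day 16. Mageb16 stood at 10.63 in KD, 3.12 in SCR and 3.90 in WT EBs of day 4 (KD minus SCR 7.51, limma adjusted p = 1.4e-22) and at 10.78, 10.31 and 10.28 in ESCs of the same lines. Taf7l, the testis form of a general transcription factor subunit, changed by 3.45 at day 12, and the meiotic gene Tex11 by 1.13. Tex11 was dim in all lines there, at 3.74 in KD, 2.61 in SCR and 2.72 in WT EBs.

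The nearest measured genes on either side were also examined. All KD arrays lay above all controls at all 5 stages for 2.84% of all genes, and at single stages for 9.64% to 34%, so most genes lack the pattern. Of 14 such neighbours, 5 had no stage at which all KD arrays lay above all controls, and 1 had this at all 5. The share of all genes with no such stage is not given here, so the first count only describes. The neighbour with all 5 stages is named next. This neighbour was Ak4, a mitochondrial adenylate kinase gene next to Dnajc6. It was higher than SCR by 2.29 in ESCs, 2.11 at day 4, 3.67 at day 8, 3.48 at day 12 and 2.58 at day 16. It was called against both controls throughout. In ESCs the difference of Ak4 exceeded the 1.51 of Dnajc6. Vps26a, a retromer subunit gene next to Srgn, was higher than SCR at all 5 stages, but by 0.32 to 0.97. Atf7ip2, next to Rpl39l, was lower than SCR in ESCs, at -0.56, and higher at day 16, at 3.06. Fmr1, next to Fmr1nb, was called at no stage against either control, with KD minus SCR from -0.13 to 0.22. Crx, opposite Crxos, was called against SCR at 1 stage, by 0.47 in ESCs, and never against WT.

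**Figure D5:**
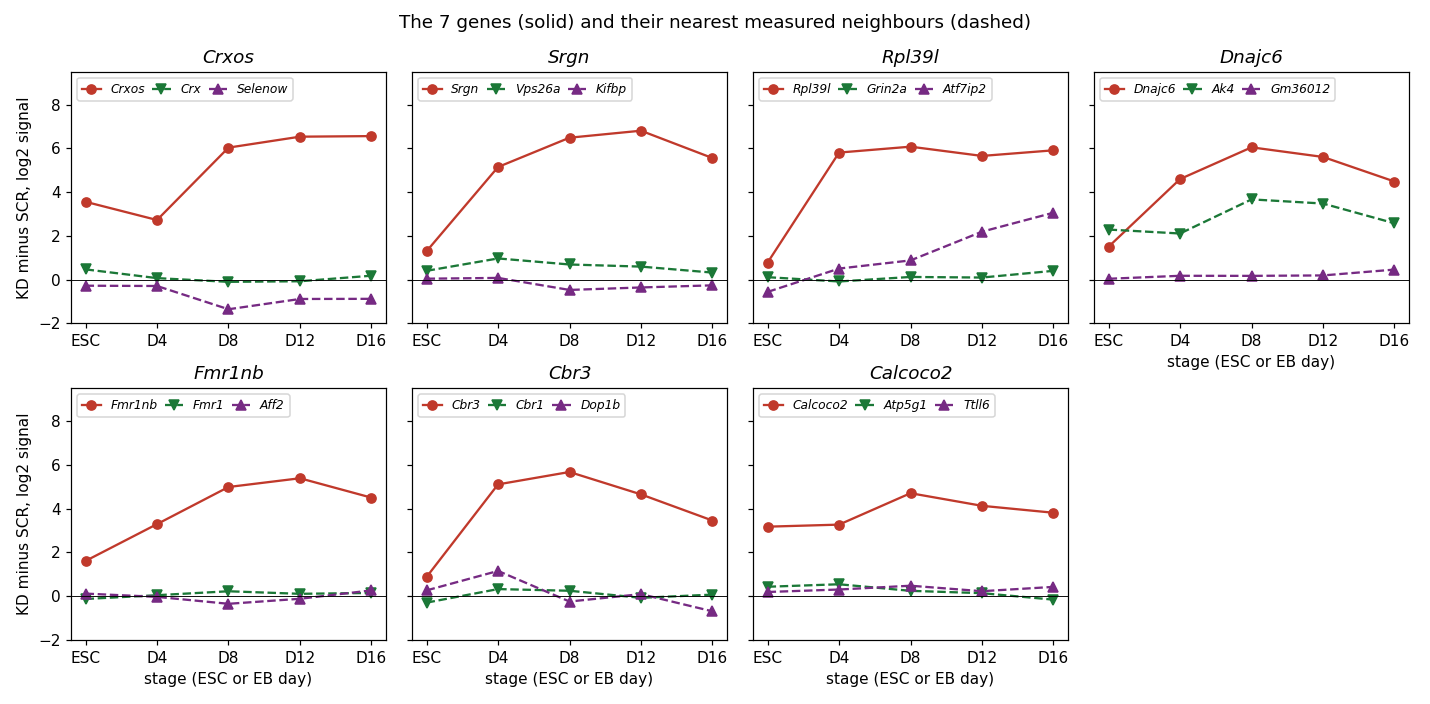
KD minus SCR in log2 signal (vertical axis) by stage (horizontal axis) for each of the 7 genes (solid) and its nearest measured gene on either side (dashed), from group means of 3 arrays. Ak4 runs 2.11 to 3.67 above 0 beside Dnajc6, and Atf7ip2 reaches 3.06 beside Rpl39l at day 16, while the other neighbours lie between -1.35 and 1.15.

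Genes with the most similar pattern were named by Pearson's correlation over the 15 group means, among 9037 genes that spanned at least 1 log2 unit. The 15 means share arrays and stages, so these values only describe. Rpl39l ran closest to Morc1 (0.996) and Fbxo15 (0.994), Dnajc6 to Trap1a (0.994) and Klf9 (0.991), and Fmr1nb to Gfus (0.991) and Wapl (0.989). Calcoco2 ran closest to Clnk (0.986) and Sox15 (0.985), Cbr3 to Pycard and Slc7a7 (0.979 each), Crxos to Vax2os (0.977) and Amn (0.975), and Srgn to Ccpg1 and Cubn (0.975 each). Amn and Cubn, which encode partners in an endocytic receptor of yolk sac and kidney, are both in the extraembryonic endoderm marker list. Among the 7 genes themselves the pairwise correlations were 0.58 to 0.97 over all 15 means, -0.21 to 0.97 over the 10 control means and -0.86 to 0.82 over the 5 KD means.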

How the data were processed

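Gene expression was measured on Affymetrix Mouse 430 2.0 arrays, from total RNA labelled by a 3′ amplification kit, per the labels' protocols. The deposited values are log2 signals of 45037 probe sets on 45 arrays, with 2 decimals. The submitters' processing notes name RMA, Partek 6.6 and Affymetrix Expression Console, without saying which did what. In each line 1 array titled as day 8 is tagged as ESCs in its cell type label. It was grouped by its title. Replicate numbers come from the source names.

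Probe sets with a single symbol (34945) gave 18193 genes, each represented by the probe set with the highest mean over all arrays. The 932 probe sets with several symbols and the 9160 with none were left out, and no filter on level was applied. All 45 arrays entered a linear model with 1 mean per group (R 4.3.3 with limma 3.58.1 and, for reading files, version 1.17.8 of data.table), with 30 residual and 5.17 prior degrees of freedom, and Benjamini-Hochberg adjustment over all genes within a comparison at 0.05. It was tested on simulated data. Same-numbered arrays deviated together in every pair (correlations over 0.1) in SCR against WT in ESCs (0.23 to 0.48), at day 8 (0.27 to 0.37) and at day 12 (0.10 to 0.30). There the numbers were taken to pair the samples, a pairing read from the data, as the labels give only a number. In the other 18 of 21 comparisons they share only a number. The 45 arrays, 3 per group, limit the precision. Members and lists were chosen with earlier results of these data known. Of 139 partner genes listed, 118 were measured, and all 62 marker genes.

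Named were the 7 genes, Strip2, for each of the 7 the 2 genes of most similar pattern, up to 3 genes per partner list called the same way against both controls with the largest KD minus SCR, family relatives, and the nearest measured neighbours in the RefSeq table of GRCm38.p6. Mymx, Mageb16 and Rhox5 as genes beyond the 7 in rank, and the single genes behind marker lists, were named after their values were seen. Promoters were searched with Python, and figures drawn with matplotlib. Alternatives were median centring, cyclic loess, the replicate number as a block, only the groups compared, bright genes only, other probe sets, a trended and robust prior, and leaving out each array.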

Additional observations from a re-analysis of the deposited data

Results flagged for a closer look

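The change from ESCs differed between SCR and WT in 5 cases, by a test of the difference itself. For Crxos it was 1.86 to day 4 (limma adjusted p = 0.00012) and 1.76 to day 16 (4.5e-05), for Calcoco2 1.23 (5e-04) and 0.85 (0.0065), and for Rpl39l -1.95 to day 16 (0.00018). The Calcoco2 differences did not pass with only the 4 groups compared in the fit (adjusted p = 0.062 and 0.12). On the further Crxos probe set both Crxos differences turned, to -0.31 and -0.36, and neither passed (adjusted p = 0.64 and 0.52). The day 4 differences of Crxos and Calcoco2 largely repeat the differences between SCR and WT in ESCs.

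In other cases every KD EB array lay on one side of every KD ESC array and every control EB array on the opposite side of its ESC arrays, a difference that was not tested. Srgn changed by 2.42 in KD to day 4, while it was lower in SCR and in WT. Crxos changed by 2.27 in KD to day 16, while it was lower in both controls. Fmr1nb changed by 0.14 in KD to day 16, a change that did not pass its own test (adjusted p = 0.66), while it fell in both controls.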

How the results depend on the processing

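All 7 genes kept KD above both controls at all 5 stages after median centring and after cyclic loess. The count was 6 with the second probe sets and 7 with the mean of probe sets. Only Crxos (2 probe sets) and Dnajc6 (4) could change there, since each other gene has 1. On its second probe set Dnajc6 kept the separation at all 5 stages and Crxos lost it. No KD minus control difference of the 7 changed sign in any of 860 recomputed values, but for most of them this was fixed beforehand. Since no KD array overlapped a control array of its stage, leaving out 1 array (420 values) could not turn a sign. Refits with a block, another prior, fewer groups or fewer genes leave these differences as they are. Only scaling and other probe sets could have turned one. The sizes for Crxos and Dnajc6 did change with other probe sets. Of 20 differences each, 18 moved by more than the gene's SD in the model on second probe sets and 19 with the mean. The dimmest Dnajc6 probe set, which entered only that mean, stood at -0.12 against SCR in ESCs. Cyclic loess took the median gene's KD minus SCR at day 16 from 0.17 to 0.05. Of 1223 recomputed tests of single genes, 1164 kept their call or stayed uncalled, 35 lost and 19 gained the call, and 5 turned direction.

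The turned ones were Crxos on its second probe set (SCR minus WT in ESCs 0.32, WT change to day 4 0.067, SCR against WT in change to day 4 -0.31 and to day 16 -0.36) and Dnajc6 with probe sets averaged (KD day 16 against ESC -0.29, adjusted p = 0.037). For counts of genes called, centring gave 5 for SCR against WT at day 12, where 3 were called. Leaving out dim genes removed Crxos and Calcoco2 and kept the other 5 of the 7. It gave 0 for SCR against WT in ESCs and 3 and 3 for KD EBs of day 4 and day 16 against ESCs. The SCR against WT difference in change gave 0 to day 4 and 1 to day 16. These counts were lower because both genes were out. Of the 65 tests of single genes left, none lost its call and 1 gained it. Second probe sets gave 1 in ESCs and 0 at day 8 for SCR against WT, and 1 for the change to day 4. With only the arrays of the groups compared, SCR against WT gave 1 each in ESCs, at day 8 and at day 16, and the change to day 4 gave 1.

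Leaving out each array in turn gave, for SCR against WT, 2 in ESCs, 0 to 1 at day 4, 0 to 3 at day 8, 2 to 3 at day 12 and 1 to 3 at day 16. Without WT replicate 1 Cbr3 was called at day 4. At day 16 the count was 1 without WT replicate 3 or SCR replicate 2 or 3, where Fmr1nb was lost. The ranges were 5 and 4 to 5 for KD EBs of day 4 and 16 against ESCs, 6 to 7 for SCR at both days, 7 and 6 to 7 for WT, and 2 and 3 to 4 for the change in SCR against WT. The cause of these shifts was not tested.

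A replicate block within the stage, for SCR and WT only and chosen after seeing the data, gave 2 in ESCs, 3 at day 8 and 5 at day 12 for SCR against WT. With the replicate number as a block over all arrays the counts stayed at 2, 0, 2, 3 and 2 for SCR against WT from ESCs to day 16, with Fmr1nb lost and Cbr3 gained at day 8. They stayed at 5 and 5 in KD, 6 and 7 in SCR, 7 and 7 in WT, and 2 and 3 for the difference in change.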
